A study of Mus musculus with 23 samples.

Results

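The 33 genes described here encode the proteins that copy DNA during S phase. They were chosen by gene symbol, from a list of DNA replication and S phase genes, and all 33 were among the 54354 genes of the deposited table. According to the design text, RNA came from primary tumours grown after AKP-tdT organoids carrying the Basp1-eGFP-DTR reporter had been placed in the mouse colon. The extraction protocol instead names organoids as the source of RNA, and the labels do not settle which holds. All libraries carry the genotype label Basp1-GFP, and they fall into 12 sorted GFP-negative and 11 sorted GFP-positive libraries. Nothing in the labels spells out the AKP alleles, the host strain, age, diet or time of collection, or says that a gate on tdTomato was used, so the GFP-negative gate could also hold host cells. The GFP signal follows Basp1, the membrane-associated protein gene into which the reporter was placed, and the comparison asks how replication genes stood in the reporter-positive cells relative to the reporter-negative cells.

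Replication starts when the Cdc6 and Cdt1 proteins load rings of Mcm2 to Mcm7 onto origins. Cdc45 and the GINS complex then turn each ring into an active helicase, and the primase and polymerases copy the strands behind it. Pcna is the sliding clamp that holds the polymerases on DNA, replication factor C loads it, and replication protein A covers the single strands. Fen1 and Lig1 finish the lagging strand, ribonucleotide reductase, Tyms and Dut supply clean nucleotides, and Uhrf1, Chaf1a, Chaf1b, Hells and Slbp help to rebuild chromatin and its DNA methylation. Many of these genes are classical targets of the E2F transcription factors, which switch them on at the G1/S boundary, whereas genes of mitosis are commonly controlled through the cell cycle homology region (CHR) and CCAAT boxes.

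The promoters are shown because E2F-type letters were more frequent in them than in those of all genes, although most members lack these letters. RefSeq promoter windows on build GRCm38.p6, from 250 bases before to 50 bases after a start, were found for 28 of the 33 genes. Those for Mcm4, Gins1, Gins2, Pole and Rfc2 were not used here. An E2F-type match was taken as the letters TTTCCCGC or TTTGGCGC on either strand. Such a match stood in the windows of 10 of 28 members (35.7%), against 1.80% of 27025 genes with a window and 0 of 21 genes of a G2 and mitosis list. The 4 stretches below end 1 base before the annotated start of transcription and hold 170 bases each, with E2F-type letters in capitals; Mcm2 is shown as a helicase subunit with no such letters, and its window instead holds the CHR letters 70 bases before the start.
Mcm2 (chr6:88898781-88898950, minus strand): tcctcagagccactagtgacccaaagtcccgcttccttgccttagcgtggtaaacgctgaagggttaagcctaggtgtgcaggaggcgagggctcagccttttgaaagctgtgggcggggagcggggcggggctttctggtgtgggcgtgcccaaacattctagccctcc
Mcm5 (chr8:75109339-75109508, plus strand): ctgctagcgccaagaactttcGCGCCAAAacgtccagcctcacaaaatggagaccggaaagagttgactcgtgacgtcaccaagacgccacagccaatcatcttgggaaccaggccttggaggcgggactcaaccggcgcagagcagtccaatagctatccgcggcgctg
Mcm6 (chr1:128359706-128359875, minus strand): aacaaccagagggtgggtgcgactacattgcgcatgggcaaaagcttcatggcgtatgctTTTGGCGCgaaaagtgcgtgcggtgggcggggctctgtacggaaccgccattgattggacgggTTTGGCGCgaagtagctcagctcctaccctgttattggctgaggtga
Pola1 (chrX:93632156-93632325, minus strand): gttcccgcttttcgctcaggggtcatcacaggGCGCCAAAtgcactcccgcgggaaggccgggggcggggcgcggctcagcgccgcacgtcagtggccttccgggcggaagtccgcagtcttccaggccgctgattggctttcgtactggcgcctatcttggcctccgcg

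The Mcm6 promoter held the same 8 letters at both 110 and 47 bases before the start. The match of Mcm5 began 149 bases and that of Pola1 138 bases before the start. Mcm7, Cdc6 and Hells also had a match before the start, at 165, 138 and 62 bases, and those of Mcm3, Cdt1, Pold1 and Rfc3 lay at or after it. The CHR letters TTTGAA, searched on both strands, stood in 3 of 28 members, in 15 of 21 G2 and mitosis genes and in 20.2% of all genes with a window. The letters CCAAT, on either strand, stood in 17 of 28 members, 19 of 21 G2 and mitosis genes and 41.1% of all genes. The E2F-type and CHR letters cannot overlap, and a CCAAT match can share an end base with an E2F-type match. A match describes these letters only. Fold changes between the sorted populations, given below, had a median of -0.08 on the log2 scale in the 7 tested members with an E2F-type match (-0.40 to 0.50) and -0.18 in the 12 without one (-0.49 to 0.19).

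Depth limits what can be said of single replication genes. Total counts had a median of 144334.5 in GFP-negative and 1418140 in GFP-positive libraries and ran from 25458 to 4238877. The groups differed 4.53-fold in geometric mean (two-sided permutation test, p = 0.0168). Of the 759 member values, 87 were 0. In GFP-negative 4, 5 and 12 and GFP-positive 4, which held fewer than 100000 counts, 45.5% of the member values were 0, against 4.31% in the other libraries. A count of 0 allows up to 3 counts, for counting error alone. Only 7 members had a count in every library, namely Pcna, Mcm7, Rfc2, Fen1, Tyms, Slbp and Gins2. The reporter gene Basp1 overlapped between the populations (0 to 83.8 in GFP-negative against 13.3 to 108 CPM in GFP-positive libraries, where CPM is the count divided by the library total and multiplied by 1000000). Its medians were 27.7 CPM in GFP-negative and 51.3 CPM in GFP-positive libraries. Its log2 fold change was 0.63 (SE 0.38, edgeR unadjusted p = 0.103, adjusted p = 0.997). The epithelial markers Epcam, Krt8, Krt18, Krt19 and Cdh1 were above 0 in every library, and 12 epithelial genes together gave 3139 to 9087 CPM. Macrophage and fibroblast markers were present in most libraries too, and their levels stand below beside the results they move with.

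The summed level of the replication genes overlapped between the populations. The sum was lowest at 733, had a median of 967 and reached 1508 CPM over the 12 GFP-negative libraries. In the 11 GFP-positive libraries the lowest was 643, the median 862 and the highest 1010 CPM. Most libraries of both groups lay in the common range, and the 3 highest libraries were the GFP-negative 2, 3 and 6. The means were 1007 ± 215 CPM (SD, n = 12) and 864 ± 114 CPM (SD, n = 11). Library names start with an identifier, and 9 of these occur in both populations. For the identifier 61-1, 2 GFP-positive libraries, from different runs of library numbers, were averaged, and every count over identifiers uses this average. Another identifier was formed by joining GFP-negative 4 and 5, named 8050 and 8045, to match GFP-positive 4, whose name carries both numbers. Over these 10 identifiers the sum was lower in GFP-positive cells of 6 and higher in 4, and without the joined one it was lower in 6 and higher in 3. Among the 8 libraries with at least 1000000 counts, the sum ran from 757 CPM in GFP-positive 1 (95% Poisson interval 731 to 784) to 1118 CPM in GFP-negative 6 (1075 to 1162). These intervals do not overlap, so single libraries differed by more than counting error. In bulk RNA, fewer cells in S phase and less RNA per cell cannot be told apart.

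**Figure D1:**
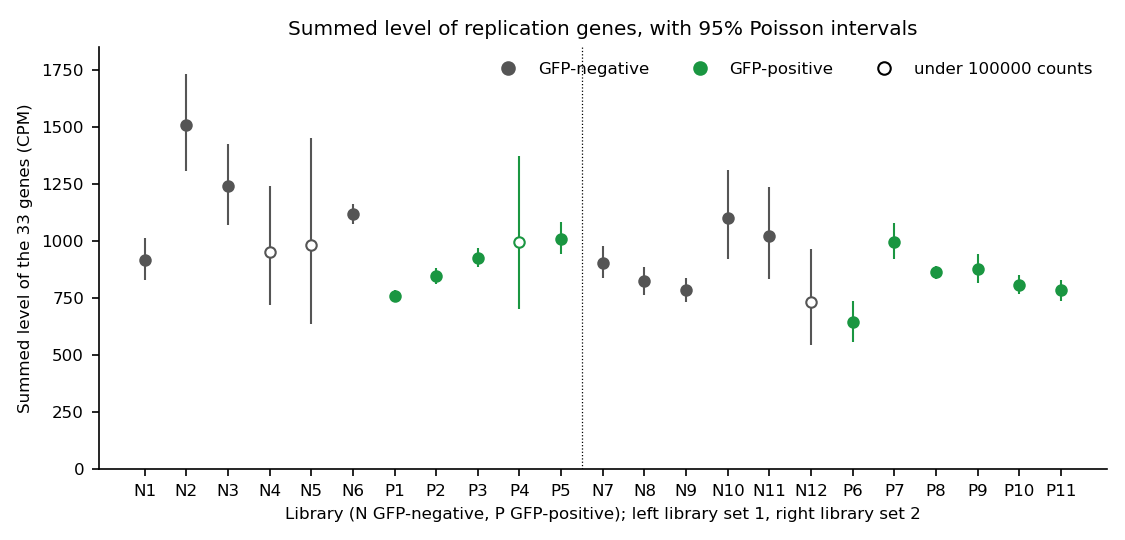
Summed level of the 33 replication genes in each library, in CPM, with 95% Poisson intervals that cover counting error only. GFP-negative libraries (N) are grey and GFP-positive libraries (P) green, with library set 1 left and library set 2 right of the dotted line; GFP-negative 2 is highest at 1508 and GFP-positive 6 lowest at 643, and open symbols mark libraries under 100000 counts.

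No single replication gene passed the test between the populations. Of the 33 members, 22 passed the filter on low counts, and 0 of these were called by the edgeR quasi-likelihood test at a Benjamini-Hochberg adjusted p under 0.05, where 0.0151% of the 6621 tested genes were called. No member had an unadjusted p under 0.05 either, against 328 of all tested genes. DESeq2 also called 0 members, where 1 of all genes was called higher and 23 lower. In DESeq2 1 member, Pcna, had an unadjusted p under 0.05. How many of all genes did so in DESeq2 is not given here. The fold change, as GFP-positive minus GFP-negative on the log2 scale, was negative in 16 of 22 members, with a median of -0.15. Over all tested genes 41.5% were negative and the median was 0.07. The 95% intervals of 12 members lay within -1 to 1, and over all 22 the bounds ran from -1.35 to 1.32, so that a 2-fold lower level remained within the interval of 8 members and a 2-fold higher level within that of 2. With the identifiers as a block, where 0.0453% of the genes were called, 0 members were called again, and 14 of 22 were negative.

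**Figure D2:**
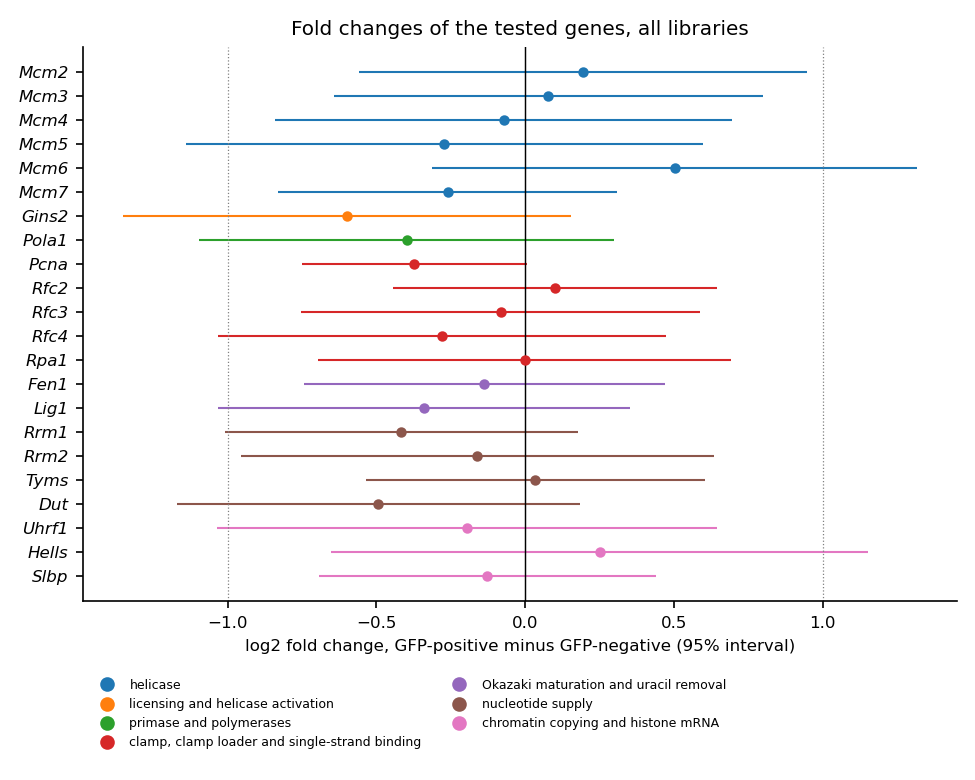
Log2 fold change of the 22 tested replication genes, GFP-positive minus GFP-negative over 23 libraries, with 95% intervals and coloured by role. Every interval includes 0; Pcna has the narrowest, from -0.75 to 0.01, and the dotted lines mark a 2-fold difference either way.

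Pcna, the sliding clamp, was the most abundant member per kilobase of exon and the one with the smallest p. Its level in GFP-negative libraries was 69.3 CPM at the lowest, 162 at the median and 249.5 at the highest, and in GFP-positive libraries 96.6, 124 and 162 CPM. The highest GFP-positive library stood at the GFP-negative median, and the ranges overlapped. The lowest GFP-negative value was 4 counts of 57728 in GFP-negative 4. The highest GFP-positive value was 6 counts of 37125 in GFP-positive 4. Among libraries with at least 100000 counts, the lowest GFP-negative value was 133 CPM and the highest GFP-positive value 142 CPM, so the ranges overlapped less. Pcna had a log2 fold change of -0.37, with SE 0.19, an interval from -0.75 to 0.01 (95%), an edgeR unadjusted p of 0.0533 and an adjusted p of 0.996, and it was lower in GFP-positive cells of 9 of 10 identifiers, the exception being the joined one. The joined one rests on 4 and 5 counts in its GFP-negative libraries and 6 in its GFP-positive library. For 61-1 the direction rests on the average. GFP-negative 8 had 136 CPM, GFP-positive 7 of the same run of library numbers 142 CPM, and GFP-positive 2 of the other run 124 CPM. DESeq2 gave -0.44 (SE 0.15) with an unadjusted p of 0.0030 and an adjusted p of 0.311. Pcna (ENSMUSG00000027342, chromosome 2, 132249162 to 132253314, minus strand, mm10) had a median of 57.9 CPM per kilobase of exon over the 19 libraries with at least 100000 counts. Its lowest value there, 40.3, was above the highest value of every other member, 35.4 for Rrm2. The pseudogenes Pcna-ps1 and Pcna-ps2 held 0 and 1 count in all libraries, so few reads were assigned to these copies.

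Of the other clamp and loader genes, the replication factor C genes had log2 fold changes of 0.10 (Rfc2), -0.08 (Rfc3) and -0.28 (Rfc4), and the replication protein A subunit Rpa1 stood at 0.00. Their standard errors were 0.27 to 0.37. The smaller subunit gene Rpa2 was not tested, with 108 counts in GFP-negative and 198 in GFP-positive libraries. Together the 6 clamp, loader and single-strand binding genes averaged 330 CPM (SD 44.9, n = 12) where GFP was negative and 275 CPM (SD 38.3, n = 11) where it was positive. Their sum was lower in GFP-positive cells of 8 of 10 identifiers.

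The 6 helicase genes did not share a direction. Fold changes were positive for Mcm2, Mcm3 and Mcm6 and negative for Mcm4, Mcm5 and Mcm7, with a median of 0.00. Their summed levels overlapped, at 43.1 to 280 CPM with a median of 153 in GFP-negative and at 53.9 to 213 CPM with a median of 156 in GFP-positive libraries.

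Mcm6 had the highest fold change of the members tested, at 0.50 (SE 0.40, edgeR adjusted p = 0.997). It had 0, 13.7 and 34.6 CPM as lowest, median and highest value in GFP-negative libraries and 0, 22.6 and 52.5 CPM in GFP-positive libraries. The highest value was that of GFP-positive 9. Mcm2 had 0, 12.7 and 53.3 CPM in GFP-negative and 0, 19.3 and 34.98 CPM in GFP-positive libraries, with a log2 fold change of 0.19 (SE 0.37). Its highest value, in GFP-negative 2, was 7 counts of 131307. It stood far above the other GFP-negative libraries.

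Mcm3 had 0, 33.8 and 60.2 CPM in GFP-negative and 6.15, 30.3 and 86.2 CPM in GFP-positive libraries, with a log2 fold change of 0.08 (SE 0.36). Mcm4 had 0, 17.0 and 73.3 CPM in GFP-negative and 0, 23.98 and 39.9 CPM in GFP-positive libraries, with -0.07 (SE 0.38). For Mcm4 the GFP-positive median was the higher although the fold change was negative, and the gene was higher in GFP-positive cells of 6 of 10 identifiers. Without GFP-negative 6 its fold change was 0.29, and without GFP-positive 7 that of Mcm3 was -0.17, and each gene thus changed sign when a single library was left out.

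Mcm5 showed how far a single library could carry a fold change. It had 0, 15.2 and 89.0 CPM in GFP-negative and 0, 16.1 and 30.3 CPM in GFP-positive libraries, with a log2 fold change of -0.27 (SE 0.43). It was nevertheless higher in GFP-positive cells of 7 of 10 identifiers. The highest value, in GFP-negative 3, was 14 counts of 157362, and this library has no GFP-positive partner by its identifier. Without it the fold change was 0.17.

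Mcm7, the helicase gene with the highest median per kilobase of exon, had 14.4, 49.7 and 118 CPM in GFP-negative and 26.9, 48.4 and 58.4 CPM in GFP-positive libraries, with -0.26 (SE 0.28). The medians lay close together, and only GFP-negative libraries, namely GFP-negative 2, 5 and 6, exceeded 58.4 CPM. The highest value, in GFP-negative 5, was 3 counts of 25458, and the lowest, in GFP-negative 12, was 1 count of 69580.

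Although the proteins form a ring with equal parts, the median levels of the transcripts differed. Median levels over the same 19 libraries were 11.2 CPM per kilobase of exon for Mcm7, 8.33 for Mcm3 and 6.68 for Mcm4. They were 4.20 for Mcm6, 3.84 for Mcm5 and 2.71 for Mcm2. The ranges over libraries overlapped between all 6, so the ranges did not separate any of the genes in this order. The exon length merges every annotated exon of a gene, and it can exceed that of the transcript present, which lowers the value. Each range started between 1.01 and 4.43 and ended between 7.66 and 25.8.

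**Figure D3:**
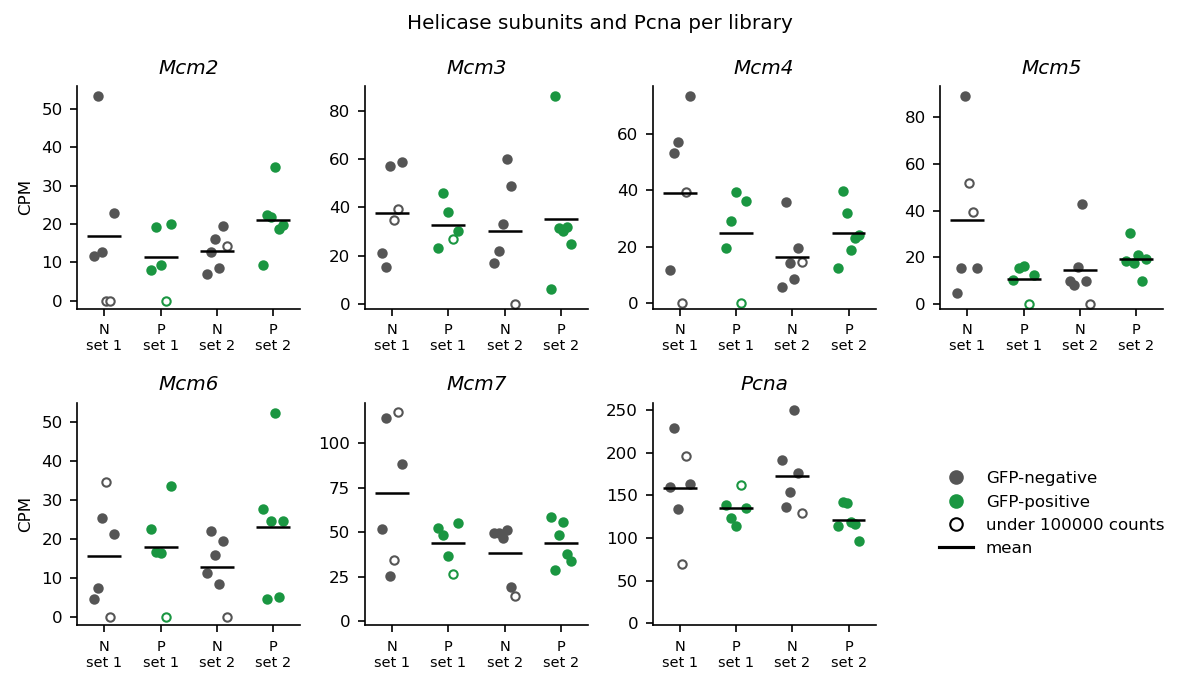
Level of the 6 helicase genes and Pcna in each library, in CPM, by population (N GFP-negative, P GFP-positive) and library set, with horizontal lines at the means. Pcna lies between 69.3 and 249.5 throughout, and the highest Mcm2 and Mcm5 values belong to single GFP-negative libraries of set 1.

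Of the licensing and helicase activation genes, only Gins2 was abundant enough to test. This GINS subunit gene had 8.61, 23.1 and 69.3 CPM as lowest, median and highest value in GFP-negative libraries and 6.13, 14.3 and 35.04 CPM in GFP-positive libraries. Its log2 fold change of -0.60 (SE 0.37, 95% interval -1.35 to 0.15, edgeR adjusted p = 0.997) was the lowest of the tested members, and it was lower in 7 of 10 identifiers. The loading factors Cdc6 and Cdt1, the activator Cdc45 and the GINS gene Gins1 did not pass the filter. In a fit with no filter, in which 0.00419% of the 23846 genes were called and 0 of the 33 members, Gins1 had 1.27 (95% interval 0.01 to 2.52, edgeR unadjusted p = 0.0488, adjusted p = 0.442). That value rests on 20 counts in GFP-negative and 147 in GFP-positive libraries, and it stood against the negative value of its partner Gins2. Gins1 was higher in 4, lower in 5 and equal in 1 of 10 identifiers.

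Among primase and polymerase genes, Pola1, the catalytic subunit that starts each new strand with primase, was the only tested member. It had 0, 31.5 and 77.7 CPM in GFP-negative and 0, 25.7 and 42.3 CPM in GFP-positive libraries, with a log2 fold change of -0.40 (SE 0.35, edgeR adjusted p = 0.997). The 2 groups overlapped over most of their range. The genes for the leading and lagging strand polymerases were scarce. Pole had 129 and Pold1 107 counts in all 23 libraries together, with medians of 0.40 and 0.87 CPM per kilobase over the 19 libraries with at least 100000 counts, and the primase gene Prim1 had 273 counts.

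The lagging strand genes Lig1 and Fen1 were measured in nearly all libraries. Lig1, the ligase that joins Okazaki fragments, had 14.4, 52.1 and 129 CPM in GFP-negative and 0, 48.4 and 80.8 CPM in GFP-positive libraries, with a log2 fold change of -0.34 (SE 0.34). It was lower in 5 and higher in 5 of 10 identifiers. GFP-positive 6 had no Lig1 count among 325231, whereas all other GFP-positive libraries had at least 31.7 CPM. The flap endonuclease gene Fen1 had -0.14 (SE 0.30), and Ung, which removes uracil from DNA, was not tested with 97 counts in all.

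Genes of nucleotide supply included 3 negative and 1 positive fold change. Tyms, thymidylate synthase, had 17.2, 42.0 and 129 CPM in GFP-negative and 35.4, 52.9 and 98.9 CPM in GFP-positive libraries. Its fold change of 0.03 (SE 0.28, 95% interval -0.54 to 0.60) was close to 0, and it turned to -0.02 with scaling by library totals. Rrm1 and Rrm2, the subunits of ribonucleotide reductase, had -0.42 (SE 0.29) and -0.16 (SE 0.39). Dut, which keeps uracil out of DNA by breaking down dUTP, had -0.49 (SE 0.34), and Dut and Rrm1 were each lower in 7 of 10 identifiers.

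Of the chromatin genes, Slbp, which binds the stem-loop of histone mRNA, had 19.6, 42.7 and 71.9 CPM in GFP-negative and 21.5, 41.1 and 80.8 CPM in GFP-positive libraries. Its log2 fold change was -0.13 (SE 0.28), and the group medians were nearly equal. Uhrf1, which guides maintenance DNA methylation, had -0.20 (SE 0.42) and the chromatin remodeller gene Hells 0.25 (SE 0.45). Hells reached 189 CPM in GFP-positive 4 against at most 69.3 CPM in any other library, but this was 7 counts in a library of 37125. This value is named here after its values were seen. The chromatin assembly genes Chaf1a and Chaf1b did not pass the filter, with 231 and 302 counts.

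The library numbers fall into 2 separate runs, of which the first, library set 1, holds 6 GFP-negative and 5 GFP-positive libraries, and the other, library set 2, holds 6 of each. Whether they are batches is not stated. Replication genes had mostly negative fold changes in set 1 and no common direction in set 2. In set 1, 0 of 18 tested members were called, where 0% of 5256 genes were called (edgeR, 284 genes and 0 members at an unadjusted p under 0.05, DESeq2 6 genes and 0 members). The fold change was negative in 14 of 18 members, with a median of -0.30, while 45.9% of all genes tested were negative with a median of 0.05. The number of members tested moved with single libraries, and the count was 8 of 11 without GFP-negative 6 and 20 of 23 without GFP-positive 4. The median stayed negative in all 11 fits with a library left out, from -0.46 to -0.16. In set 2, 0 of 23 tested members were called, where 1.28% of 6952 genes were called, and 8 members were negative with a median of 0.06 against 0.07 over all genes. No member had an unadjusted p under 0.05 in set 2 either, against 478 genes. Of the 18 members tested in both sets, 11 were negative in set 1 and positive in set 2, and 3 the reverse.

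**Figure D4:**
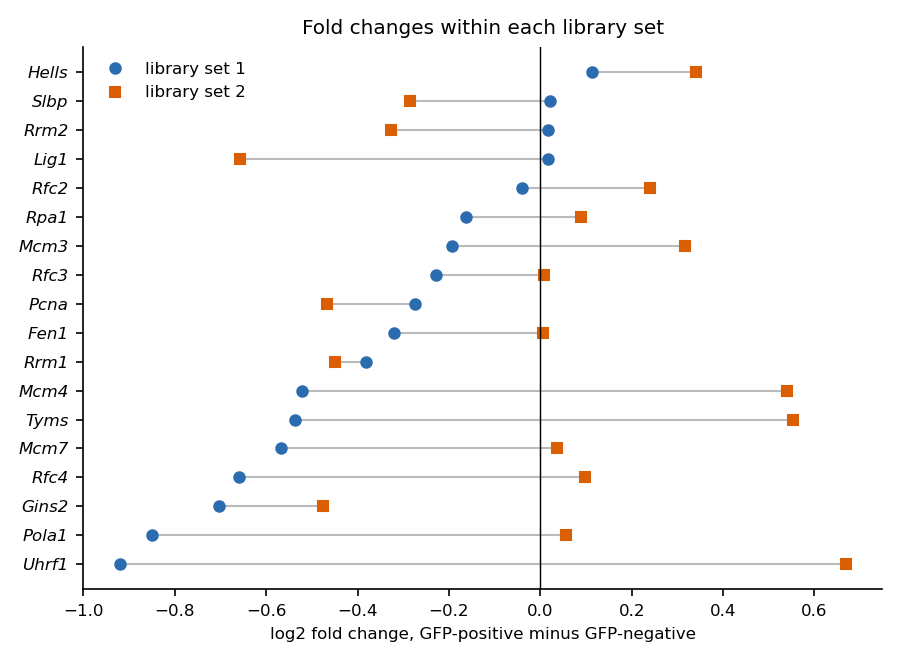
Log2 fold change, GFP-positive minus GFP-negative, of the 18 replication genes tested in both library sets, with circles for set 1 and squares for set 2. For 11 genes the circle lies below 0 and the square above it, with the widest gaps for Uhrf1, Tyms and Mcm4, while Pcna, Rrm1 and Gins2 lie below 0 in both sets.

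The summed helicase genes changed direction between the sets, but not every role did. The nucleotide supply genes had a median log2 fold change of -0.38 over 3 tested in set 1 and -0.39 over 4 in set 2. In set 1 the helicase genes summed to 217 ± 70.3 CPM (SD, n = 6) without GFP and 142 ± 52.9 CPM (SD, n = 5) with it. In set 2 the sums were 126 ± 48.0 CPM (SD, n = 6) without and 168 ± 38.9 CPM (SD, n = 6) with GFP. Of the libraries under 100000 counts, GFP-negative 4 and 5 and GFP-positive 4 are in set 1 and GFP-negative 12 is in set 2. The GFP-positive means of the 2 sets differed less than the GFP-negative means. All 6 helicase genes had a positive fold change in set 2, from 0.04 for Mcm7 to 0.76 for Mcm2, and the 3 that were tested in set 1, Mcm3, Mcm4 and Mcm7, were negative there at -0.19, -0.52 and -0.57.

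The difference between the sets was tested itself, as an interaction of population with library set, and 0 members were called, where 0% of 6621 genes were called (edgeR, 424 genes at an unadjusted p under 0.05). The members with the smallest p were Uhrf1, with a difference of 1.62 between the sets (SE 0.79, edgeR unadjusted p = 0.0477, adjusted p = 0.762), and Mcm5, with 1.61 (SE 0.84, unadjusted p = 0.0627). Uhrf1 averaged 42.5 ± 21.6 CPM in GFP-negative libraries of set 1 and 12.9 ± 16.3 CPM in those of set 2 (SD, n = 6 each). In GFP-positive libraries it averaged 13.7 ± 9.41 CPM (SD, n = 5) and 18.6 ± 7.28 CPM (SD, n = 6). Pcna differed little between the sets, with -0.27 in set 1 and -0.47 in set 2 (interaction -0.22, SE 0.38, adjusted p = 0.962). Pcna, Rrm1 and Gins2 were the members with a negative fold change in both sets among the 18.

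Markers of stromal cells moved with population and set. The 14 macrophage genes summed to 2902 to 7662 CPM in GFP-negative and 194 to 1138 CPM in GFP-positive libraries of set 2. The 11 fibroblast genes summed to 1265 to 9089 CPM in the former and 173 to 995 CPM in the latter. In set 1 the fibroblast sums overlapped, at 150 to 2453 and 0 to 2165 CPM, and the macrophage sums at 519 to 8813 and 286 to 37318 CPM. The 519 CPM of GFP-negative 6 and the 37318 CPM of GFP-positive 3 belong to libraries with the same identifier. Its log2 ratio, GFP-positive over GFP-negative, was 6.17, against -5.22 to -1.43 in the other identifiers. Its epithelial ratio was -1.36, where the epithelial sum was higher in GFP-positive cells of 7 of 10 identifiers. Why this identifier differed was not tested. Of the defining markers, the macrophage genes Lyz2 and C1qb were above 0 in all libraries, the fibroblast gene Pdgfra was at 0 in 9, and the B cell genes Cd79a and Ms4a1 were at 0 in all 23. Of the T cell genes, Cd3e was at 0 in all 23, whereas Trbc1 was above 0 in every library with 7914 counts in all. The sum of the 8 T and NK cell genes was 52.0 to 467 CPM in GFP-negative and 108 to 768 CPM in GFP-positive libraries, and it was higher in GFP-positive cells of 9 of 10 identifiers. Nearly all of this sum was Trbc1, so it describes 1 gene. Trbc1 averaged 181 CPM in GFP-negative libraries, where the 8 genes averaged 183 CPM. With no filter, 3 of the 8 were tested, 1 with a positive and 2 with a negative fold change. The part of these cells in the replication gene levels was not tested. The highest macrophage sum was that of GFP-positive 3, whose replication gene sum of 926 CPM lay inside the 757 to 1010 CPM of all GFP-positive libraries of set 1, and without it 0 members were called while 16 of all genes were.

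Other cell cycle genes were set beside the replication genes from lists drawn up for this purpose. Of 45 further genes that act at the replication fork, 26 were tested and 0 called, 14 had a negative fold change and the median was -0.02. Pole3, a histone-fold subunit of polymerase epsilon and the most abundant of them, had -0.03 (SE 0.31). Of 26 regulators of the G1/S step, 11 were tested and 0 called, with a median of 0.11 and Ccnd2, a D-type cyclin, at 0.20 (SE 0.21).

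Genes of G2 and mitosis were further from 0 than the replication genes, although none was called either. Of 24 listed, 16 were tested, 15 were negative and the median was -0.57, with 5 at an unadjusted p under 0.05 in edgeR and 2 with the identifiers as a block. The median was -1.01 over 13 tested genes in set 1, with 6 at an unadjusted p under 0.05, and -0.30 over 18 in set 2, with 0. The proliferation marker Mki67 had -0.76 (SE 0.41) and Top2a, which untangles replicated DNA, -0.27 (SE 0.23). The sum of all 24 listed genes averaged 1234 CPM (SD 464, n = 12) without GFP and 800.1 CPM (SD 186, n = 11) with it. This sum was lower in GFP-positive cells of 8 of 10 identifiers. For 61-1 that rests on the average, with 974 CPM in GFP-negative 8, 1028 CPM in GFP-positive 7 of set 2 and 548 CPM in GFP-positive 2 of set 1. In the 8 libraries with at least 1000000 counts the means of the 24-gene sum were 722 ± 38.7 CPM (SD, n = 2) and 687 ± 155 CPM (SD, n = 6). For the replication genes the sums in the same libraries were 951 ± 236 and 831 ± 60.6 CPM (SD, n = 2 and 6). No test of the difference between the lists was made.

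**Figure D5:**
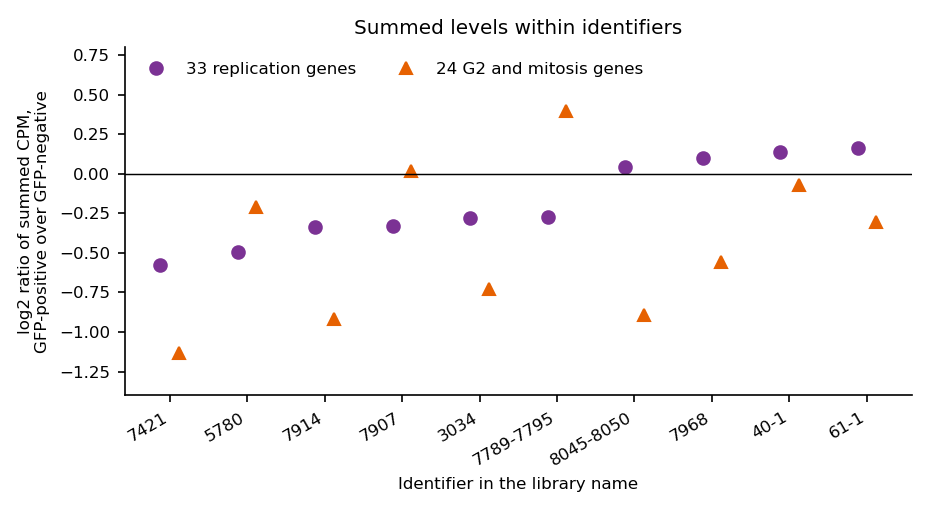
Log2 ratio of summed CPM, GFP-positive over GFP-negative, within 10 identifiers taken from the start of the library names, of which 8045-8050 joins 2 separately named GFP-negative libraries and 61-1 averages 2 GFP-positive libraries, with circles for the 33 replication genes and triangles for 24 genes of G2 and mitosis. The circles run from -0.58 to 0.16 and the triangles from -1.13 to 0.40, and the order of the identifiers differs between the lists.

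The replication genes varied from library to library with little common pattern. Over the 19 libraries with at least 100000 counts, with group means removed, the 231 pairs of tested members had a median Spearman correlation of 0.07, and 62.3% of the pairs were positive. Over all pairs of the 6621 tested genes the median was 0.03 and 54.6% were positive. These libraries share their depth and scaling between genes, and many members rest on few counts. The member closest to the others was Fen1, with a median of 0.27, and the farthest Mcm6, with -0.09.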

How the data were processed

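Bulk RNA was sequenced from 12 GFP-negative and 11 GFP-positive sorted samples, with poly(A) selection and a directional library kit per the labels' protocols. Those protocols name organoids as the source of RNA while the design text names tumours, and the labels do not settle which holds. The authors deposited expected counts for each gene, already in whole numbers, which they made with Salmon 1.3.0 on mm10 per the submitters' processing notes. Which annotation they used is not given in the sources used here. As Salmon shares out reads that match several transcripts, the counts of near-identical genes are uncertain. Coordinates and merged exon lengths are from GENCODE M21, which held 94.7% of the 54354 gene identifiers, and 1243 genes had no symbol.

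The deposited counts were compared with edgeR 4.0.16, run in R 4.3.3 (genes kept by filterByExpr, TMM scaling, robust quasi-likelihood fit, Benjamini-Hochberg adjustment over all tested genes at 0.05), over all libraries, within each library set and as an interaction. Intervals are at 95%. DESeq2 1.42.0, other scalings, no filter, blocks and leaving out each library were alternatives. The code was tested on simulated counts. Depth was compared by a permutation test with 100000 resamples. Intervals and the floor of 3 counts for a count of 0 cover counting error only, because without molecular identifiers reads cannot be taken as independent molecules. Whether each library is from its own animal is not stated, and the p-values therefore reflect only the spread of these libraries, part of which may be technical. No 2 libraries of a group were alike within sampling noise by a chi-square test over genes (121 pairs). Separate preparations of the same material could also differ by this test, so it cannot show that libraries are independent. Each library was counted as 1 sample, including both GFP-positive libraries named 61-1.

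The members, lists and tests were chosen with earlier results of these data known. Values are given for Mcm2 to Mcm7, Pcna, the member with the highest mean CPM in each role, and any tested member with an unadjusted p under 0.05 in the edgeR fit over all libraries or in either library set, of which there was none. Of other lists the most abundant member is named where none was called, together with Basp1 and Mki67. The most abundant tested markers of the other cell types were Krt19 (log2 fold change -0.07), Lyz2 (-0.06), Flt1 (-0.28), Trbc1 (0.69) and Ly6g (-0.50). Krt19 went against most of its list, as 9 of the 11 tested epithelial genes were positive, with a median of 0.24 and 0 called. In set 1, 7 of 11 were positive with a median of 0.01, and in set 2 all 11 with a median of 0.31. The value of Lyz2 sets medians of 1302 CPM in GFP-negative and 142 CPM in GFP-positive libraries beside 15123 CPM in GFP-positive 3. The macrophage list had a median of 0.15 over all libraries, -3.03 with the identifier block and -3.71 in set 2. Its sum was lower in GFP-positive cells of 9 of 10 identifiers, the exception being that of GFP-negative 6 and GFP-positive 3. Separately, the only called gene, the fibroblast gene Fbln1, had -3.17 (edgeR adjusted p = 0.0119). The B cell list had 0 tested genes.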

Additional observations from a re-analysis of the deposited data

Results flagged for a closer look

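Among the named genes, 52 groups of libraries were screened for a value standing far from its group, and 4 were found, where chance gives about 1 in 20. In GFP-positive 7, Mcm3 reached 86.2 CPM from 54 counts, and the next of the 6 GFP-positive libraries of set 2 had 31.8 CPM. Tyms reached 98.9 CPM from 62 counts in the same library, against 65.6 CPM in the next. The helicase gene Mcm5 stood at 43.0 CPM in GFP-negative 10, against 16.0 CPM in the next library, and rested on 5 counts. The histone mRNA gene Slbp stood at 80.8 CPM in GFP-positive 4, against 48.8 CPM in the next, and rested on 3 counts.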

How the results depend on the processing

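No member was called under any alternative that was run, over all libraries or within a set. The number of all genes called went from 1 to 24 with DESeq2, to 3 with a replicate block by identifier and to 2 with one by title number, and with single libraries left out it lay between 0 and 16, the highest without GFP-positive 3. It was 0 in 10 of these 23 fits, and the cause was not tested. In set 1 it was 6 with DESeq2 and 0 to 6 with single libraries left out, the highest without GFP-negative 6. In set 2 it went from 89 to 142 with DESeq2 and to 140 with the replicate block by identifier. Of 12 identifier pairs 5 deviated together (correlation over 0.1, range -0.22 to 0.40), and of 11 title number pairs 2 did. The title number pair at 0.40, GFP-negative 1 and GFP-positive 1, is also the identifier pair 3034. These correlations do not settle whether libraries with the same identifier are paired. Of the 12 named members, Mcm2, Mcm3, Mcm4, Mcm5 and Tyms changed sign under some setting. Tyms went to -0.0041 with DESeq2, -0.024 with RLE size factors and -0.020 with library totals, and Mcm3 to -0.0029 with RLE size factors and -0.081 with the title number block. Mcm4 went to 0.030 with no filter, 0.23 with the identifier block, 0.11 with the title number block and 0.030 with the library set as covariate. The identifier block also gave Mcm2 -0.0040 and Mcm5 0.31. With single libraries left out, the range was -0.17 to 0.23 for Mcm3, -0.21 to 0.29 for Mcm4, -0.42 to 0.17 for Mcm5 and -0.10 to 0.19 for Tyms. The median of the tested members stayed between -0.21 and -0.09 over all libraries and between -0.46 and -0.16 in set 1, whereas in set 2 it ran from -0.03 without GFP-positive 7 to 0.15. RLE scaling moved the median of all genes from 0.07 to 0.01, and 18 of 22 members were then negative, against 48.2% of all genes. Scaling by library totals, leaving out the joined identifier, and leaving libraries under 100000 counts out of the interaction and depth comparisons, were added after seeing the data. For 11 members depth allowed no test.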
